A study of Mus musculus with 10 samples.

Results

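Spon2, Rgcc and Creb3l1 were followed across 10 individual mouse lungs. They are 3 of the 54532 genes in the deposited expression table, and they were picked from the contrast between the 2 operated groups because a large shift was missing or weaker in a single lung of the treated group. Their differences between the groups are therefore a description and carry no test. All 10 animals were wild-type C57BL/6J mice. In the 5 mice of the increased pulmonary flow (IPF) group, the abdominal aorta was punctured through into the inferior vena cava on postnatal day 7 (P7), which made an aortocaval fistula that returns arterial blood to the right heart and so raises flow through the lungs. The 5 sham mice had the same surgery on that day without the puncture, and the whole lung of every mouse was taken at P30 for mRNA sequencing. The lungs hold many cell types, so fewer cells of a type and less RNA per cell cannot be told apart in these values.

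Spon2 encodes mindin (spondin 2), a secreted matrix protein with a thrombospondin type 1 domain that binds microbial surface molecules and integrins and is known for its part in innate immunity. Rgcc (regulator of cell cycle, also known as RGC-32) encodes a small protein that binds the mitotic kinase CDK1 and was first described as a gene that responds to complement. Creb3l1 (also known as OASIS) encodes a transcription factor held in the membrane of the endoplasmic reticulum (ER), which is cut free in the Golgi by the proteases Mbtps1 and Mbtps2 and is known for switching on collagen and secretory genes. The 4 genes they were set beside are Arntl (Bmal1), an activator of the circadian clock, Dbp, an output gene of that clock, Tsc22d3 (GILZ), a classical target of the glucocorticoid receptor, and Loxl1, an enzyme that cross-links elastin fibres.

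In the table all 3 genes lie on the minus strand of GRCm38, Spon2 (ENSMUSG00000037379) on chromosome 5 from 33198184 to 33218455, Rgcc (ENSMUSG00000022018) on chromosome 14 from 79288756 to 79301645 and Creb3l1 (ENSMUSG00000027230) on chromosome 2 from 91982328 to 92024502. No other gene of the table overlaps any of them. The stretch of Spon2 that the study's qPCR primers amplify is shown because it says which part of the transcript a second assay of this gene reads. It is 133 bases long, lies at chr5:33374672-33374804 of GRCm39 (minus strand, GENCODE transcripts), and the capitals mark the forward primer site at its start and the reverse primer site at its end.
Spon2 amplicon: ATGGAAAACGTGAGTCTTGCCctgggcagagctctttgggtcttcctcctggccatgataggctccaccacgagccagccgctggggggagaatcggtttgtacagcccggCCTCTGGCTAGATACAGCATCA
Both primer sites were found in 13 of the 15 annotated Spon2 transcripts and in 0 transcripts of other genes. In all 13 they sit in the same exon, and in 12 the amplicon begins at the first coding base, so it lies within coding sequence there.

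The upstream sequence of Rgcc is shown because Rgcc moved with clock and glucocorticoid genes across the lungs, and the motifs that factors of those pathways read could be looked for in it. It is the run of 240 bases before the 5′ end of the gene in the table, chr14:79301646-79301885 (minus strand, RefSeq, GRCm38.p6), with matches to GGGCGG (GC box) and TATAA (TATA box) in capitals.
Rgcc upstream: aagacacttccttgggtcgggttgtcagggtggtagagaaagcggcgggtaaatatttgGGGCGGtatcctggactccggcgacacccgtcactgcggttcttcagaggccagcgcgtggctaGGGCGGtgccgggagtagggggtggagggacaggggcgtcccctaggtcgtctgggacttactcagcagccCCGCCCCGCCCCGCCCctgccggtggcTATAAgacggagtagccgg
On both strands it holds 5 matches to the GC box, of which the 3 nearest the gene overlap each other by a base, and 1 to the TATA box, whose last base is followed by 24 bases before the RefSeq start. Of the 32851 promoters in the reference table, 31.3% hold the GC box and 22.4% the TATA box. It holds 0 matches to CACGTG (E-box, read by Arntl with Clock), TTATGTAA (D-box, read by Dbp), AGGTCA (read by the Nr1d family), TGTTCT (a short element of the glucocorticoid receptor) or TGACGTCA (cAMP response element), which 5.69%, 0.807%, 13.5%, 15.5% and 1.44% of promoters hold. The shorter cAMP response core TGACG, which 16.9% of promoters hold, has 1 match, at position 88 of the run on the opposite strand. These letters are only absent from this window. A match is a description of the letters, not a bound site.

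FPKM is the number of fragments on a gene scaled by gene length and library size, so it can be compared between genes as well as between lungs. The FPKM values fell on whole multiples of a step in each lung, which gave back the reads on genes, 15483046 to 19026843 per lung. All 5 IPF lungs had Xist, an RNA of the silenced X chromosome, at 26.8 to 43.2 FPKM and 0 reads of Ddx3y, Eif2s3y, Kdm5d and Uty on the Y chromosome, whereas all 5 sham lungs had Xist at 0.0301 to 0.0767 FPKM and reads of all 4 Y genes. Sex and operation therefore cannot be told apart in any difference between these groups. The fifth IPF lung (IPF replicate 5), in which the 3 genes stand apart, had Xist at 26.8 FPKM and no Y reads like the other IPF lungs. The samples carry no label that ties them to litters or cages, so p-values here measure the spread between these lungs.

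Spon2 had the largest shift of the 3 genes. It stood at 21.1, 35.1, 27.3, 29.0 and 2.80 FPKM in IPF replicates 1 to 5 and at 2.24, 3.14, 2.07, 3.14 and 2.67 FPKM in sham replicates 1 to 5. IPF replicates 1 to 4 were far above every sham lung, and IPF replicate 5 lay inside the sham range.
The group means were 23.1 ± 12.4 FPKM (SD, n = 5) in IPF and 2.65 ± 0.495 FPKM (SD, n = 5) in sham, a difference of 2.70 in mean log2(FPKM + 0.1). Without IPF replicate 5 the IPF mean was 28.1 ± 5.75 FPKM (SD, n = 4), 10.6-fold the sham mean, and the log2 difference was 3.35. The reads behind these values were 1060 to 1725 in IPF replicates 1 to 4, 146 in IPF replicate 5 and 98 to 166 in the sham lungs. The exact 95% Poisson interval of IPF replicate 5, which covers counting error only, was 2.36 to 3.29 FPKM, and that of the next lowest IPF lung began at 19.9 FPKM.

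Rgcc moved the other way. It was among the most abundant mRNAs of the lung, with a mean level over all lungs above that of 99.0% of the genes tested. Its values were 84.9, 70.2, 67.5, 65.0 and 170 FPKM in IPF replicates 1 to 5 and 212, 247, 259, 214 and 229 FPKM in sham replicates 1 to 5. Every IPF lung lay below every sham lung, with IPF replicate 5 in the gap between the sham lungs and the other IPF lungs.
The means were 91.4 ± 44.4 FPKM in IPF and 232.3 ± 20.5 FPKM in sham (SD, n = 5 each), a log2 difference of -1.45. Without IPF replicate 5 the sham mean was 3.23 times the IPF mean of 71.9 ± 8.92 FPKM (SD, n = 4), and the log2 difference was -1.69. IPF replicate 5 held 2754 reads of Rgcc, with an interval of 163 to 176 FPKM, which does not reach the interval of the lowest sham lung (205 to 220 FPKM) or of the next highest IPF lung (80.4 to 89.6 FPKM).

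Creb3l1 showed the smallest shift of the 3 and, by SD on the log2 scale, the tightest groups. It was at 16.8, 14.6, 15.04, 17.3 and 8.99 FPKM in IPF replicates 1 to 5 and at 7.13, 7.01, 5.86, 7.17 and 7.13 FPKM in sham replicates 1 to 5. All IPF lungs were above all sham lungs, with IPF replicate 5 nearest to them.
The means were 14.6 ± 3.32 FPKM in IPF and 6.86 ± 0.562 FPKM in sham (SD, n = 5 each), a log2 difference of 1.04, and 15.95 ± 1.32 FPKM (SD, n = 4) without IPF replicate 5, 2.33 times the sham mean with a log2 difference of 1.21. The counting interval of IPF replicate 5 was 8.14 to 9.90 FPKM, just clear of that of the highest sham lung (6.40 to 8.02 FPKM).

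**Figure D1:**
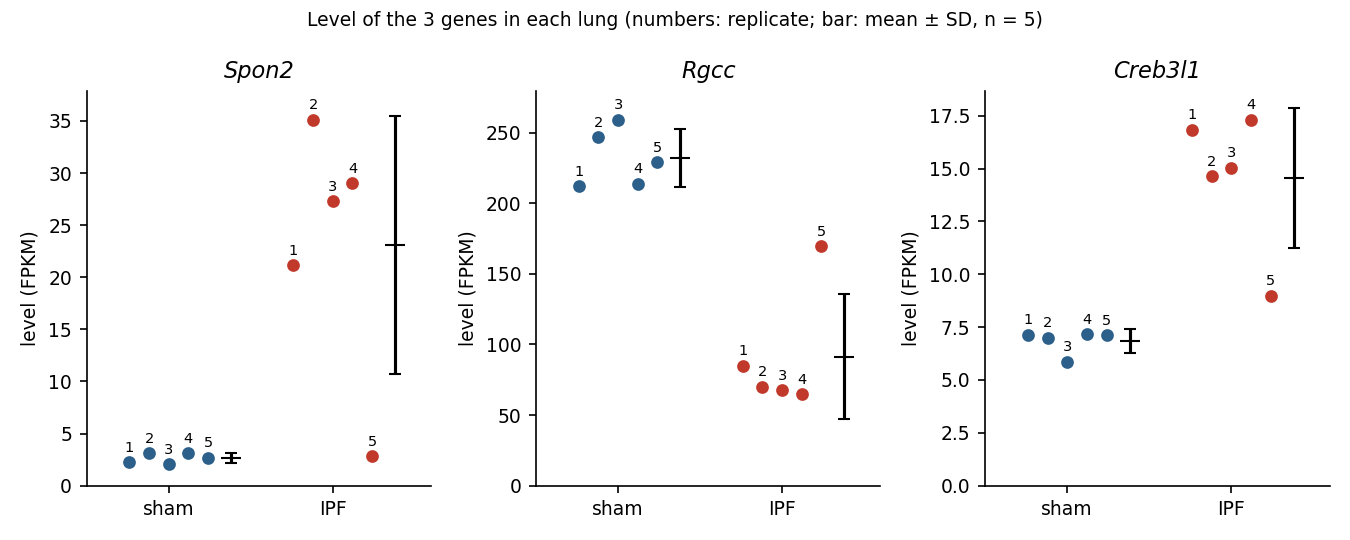
Level in FPKM (vertical axis, linear, from 0) of Spon2, Rgcc and Creb3l1 in each sham (blue) and IPF (red) lung, numbered by replicate, with the mean and SD of each group (n = 5) as a bar beside the points. IPF replicate 5 is at 2.80 FPKM for Spon2, among the sham lungs, and at 170 FPKM for Rgcc and 8.99 FPKM for Creb3l1, between the sham lungs and the other IPF lungs.

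The order of the 3 genes by level depended on the lung. Rgcc was the highest in all 10 lungs. Creb3l1 was above Spon2 in all 5 sham lungs and in IPF replicate 5, and Spon2 was above Creb3l1 in IPF replicates 1 to 4. The IPF group means of Spon2 and Creb3l1 differed by less than the SD of Spon2 in that group.
Among the 4 IPF lungs that shifted, the highest level was 1.66 times the lowest for Spon2, 1.31 times for Rgcc and 1.18 times for Creb3l1, and among the sham lungs it was 1.52, 1.22 and 1.22 times. The spread within these lungs was thus small beside the shift for each gene. Among these 4 lungs IPF replicate 2 was the highest for Spon2 and the lowest for Creb3l1, so the 2 genes that were higher in IPF did not rank these lungs alike.

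To put the 3 genes on 1 scale, the place of IPF replicate 5 was expressed as a percentage of the log2 shift of the other 4 IPF lungs, with 0 at the sham mean and 100 at the mean of those 4. Spon2 was at 2.81%, Rgcc at 26.5% and Creb3l1 at 32.3%. The comparators ran from none of the shift to most of it. Tsc22d3 was at 4.36%, with 156 FPKM in IPF replicate 5 against 53.5 to 78.2 FPKM in the other IPF lungs and 148 to 182 FPKM in sham, and Loxl1 at -32.4%, with 36.1 FPKM against 65.5 to 76.3 and 35.3 to 47.3 FPKM. These values of IPF replicate 5 lay in the sham range.
Arntl was at 75.3%, with 3.31 FPKM in IPF replicate 5 against 5.61 to 6.85 FPKM in the other IPF lungs and 0.311 to 0.452 FPKM in sham, and Dbp at 77.9%, with 3.49 FPKM against 1.74 to 2.17 and 23.2 to 29.3 FPKM. For both clock genes IPF replicate 5 was outside the sham range and on the side of the other IPF lungs. The same lung was thus sham-like for Spon2, Tsc22d3 and Loxl1, intermediate for Rgcc and Creb3l1 and nearer to IPF for Arntl and Dbp.

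The pooled Pearson correlations of log2(FPKM + 0.1) over the 10 lungs were high for all 12 pairs of a gene with a comparator. Both groups stand apart in most of these genes, the pairs were chosen with the values known, and all points of a lung share a library, so the coefficients are given without p. Spon2 had r = 0.89 with Arntl, -0.88 with Dbp, -0.98 with Tsc22d3 and 0.96 with Loxl1 (Spearman's rho 0.72, -0.76, -0.87 and 0.94). Rgcc had r = -0.94, 0.94, 0.96 and -0.90 with the same genes in that order (rho -0.81, 0.95, 0.77 and -0.75). Creb3l1 had r = 0.95, -0.95, -0.93 and 0.88 (rho 0.81, -0.98, -0.70 and 0.72). When the 2 lungs farthest from the median of the comparator were left out (n = 8), the sign of every r stayed and its size was between 0.83 and 0.98.

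These coefficients include the group difference, and each was smaller in size with the group means removed and IPF replicate 5 left out. Leaving out IPF replicate 5 alone made most of them larger in size, with 0.99 for Spon2 with Arntl and -0.99 for Spon2 with Dbp. When the group mean was taken from each gene first, r was 0.85 for Spon2 with Arntl, -0.86 with Dbp, -0.94 with Tsc22d3 and 0.97 with Loxl1. After IPF replicate 5 was also left out (n = 9), it was -0.02, 0.04, -0.61 and 0.87. Of the 4 comparators, Loxl1 was then the gene that still followed Spon2, with r = 0.97 among the 5 sham lungs and 0.85 among IPF replicates 1 to 4. Rgcc went from -0.83, 0.92, 0.90 and -0.90 with Arntl, Dbp, Tsc22d3 and Loxl1 to 0.05, 0.49, 0.35 and -0.34, and Creb3l1 from 0.88, -0.95, -0.78 and 0.88 to 0.39, -0.73, 0.28 and 0.31.
Creb3l1 with Dbp was the largest of these in size besides Spon2 with Loxl1, and it had the same sign in sham (-0.67) and in IPF replicates 1 to 4 (-0.81). Creb3l1 with Tsc22d3 changed sign between those sets, from -0.77 to 0.98, and so did Creb3l1 with Loxl1, from 0.79 to -0.89. With 4 or 5 lungs in a set these values are descriptions only.
The 3 genes also followed each other over the 10 lungs. Spon2 and Rgcc had r = -0.98, Spon2 and Creb3l1 0.96 and Rgcc and Creb3l1 -0.98. With the group means removed and without IPF replicate 5 these were -0.50, 0.10 and -0.28.

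**Figure D2:**
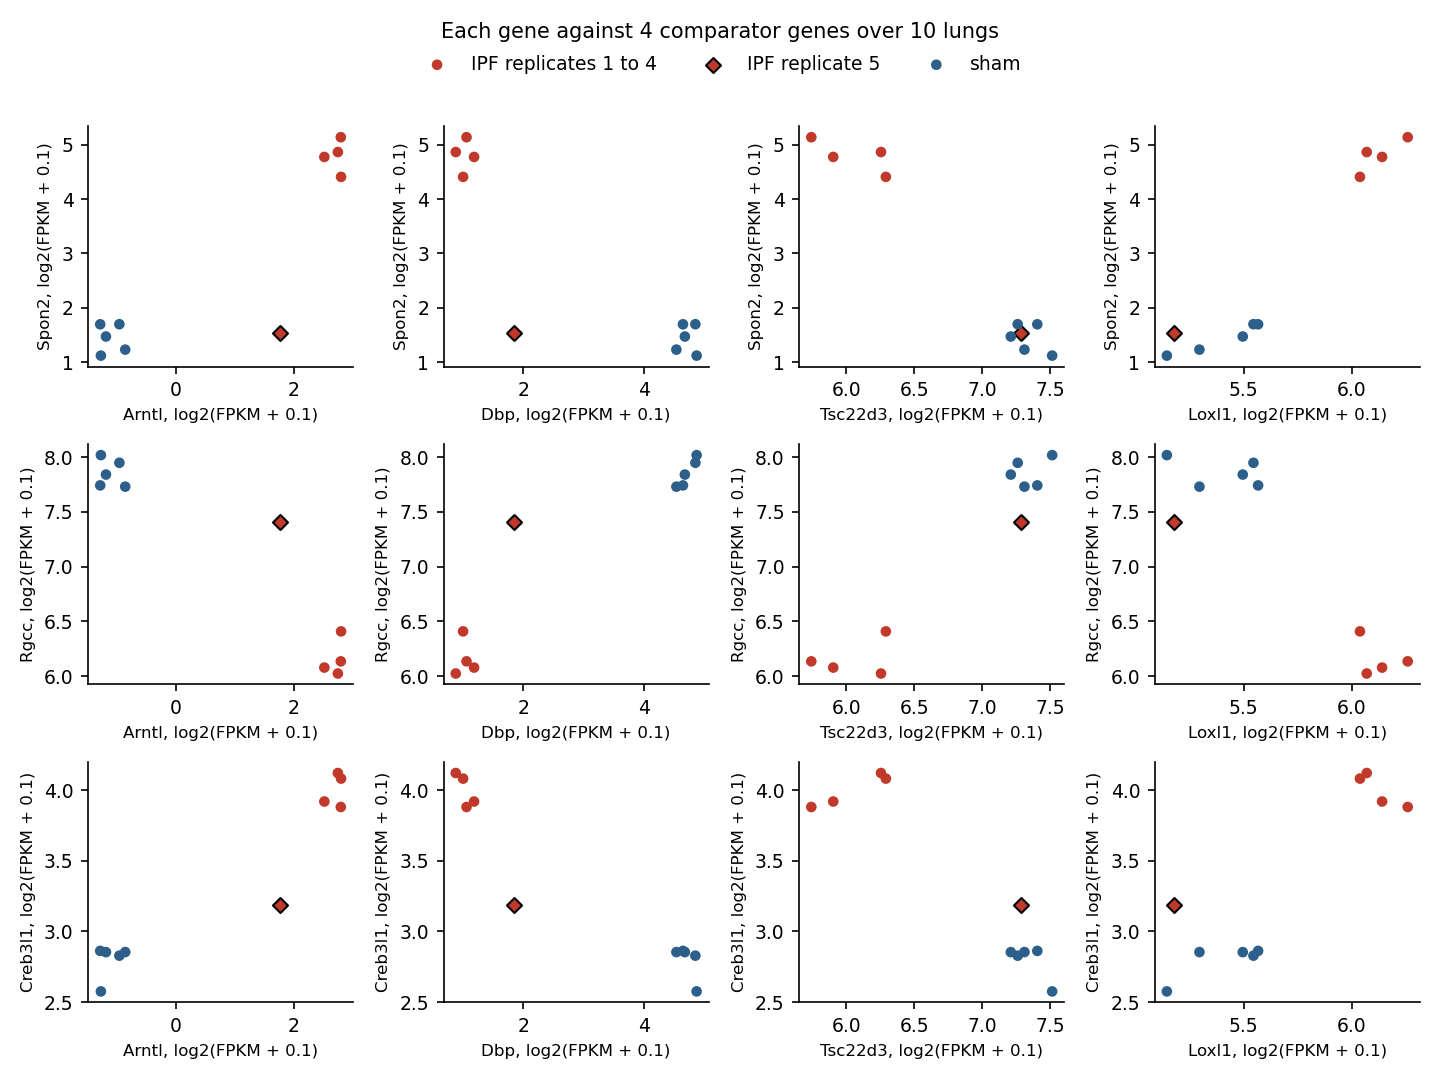
Level of Spon2, Rgcc and Creb3l1 (rows, vertical axes) against Arntl, Dbp, Tsc22d3 and Loxl1 (columns, horizontal axes), all as log2(FPKM + 0.1), in 5 sham lungs (blue), IPF replicates 1 to 4 (red circles) and IPF replicate 5 (outlined diamond). The diamond lies with or near the sham lungs in the Tsc22d3 and Loxl1 columns and away from them along the Arntl and Dbp axes.

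The genes most like each of the 3 were looked up among the 13444 other genes with a mean of at least 1 FPKM. By pooled r the closest to Spon2 were Ppp1r14c (0.98), Slc1a3, a glutamate transporter (0.98), P2ry6, a receptor for UDP (0.98), Mgme1 (0.97) and Slc22a3, an organic cation transporter (0.97). Their shifts were far smaller. Ppp1r14c was at 46.1 to 54.1 FPKM in IPF replicates 1 to 4, 38.2 FPKM in IPF replicate 5 and 33.5 to 36.4 FPKM in sham, and P2ry6 at 6.49 to 8.37, 4.29 and 3.95 to 4.85 FPKM. In the ranking Loxl1 was at place 20 and Arntl at place 225.
The closest to Rgcc were Tent5b (0.99), Fkbp5, a co-chaperone of the glucocorticoid receptor and its classical target (0.98), Tef, a clock output factor related to Dbp (0.98), Map3k6 (0.98) and Glul, glutamine synthetase (0.98). They shared its middle value: Glul, as abundant as Rgcc, was at 70.2 to 84.6 FPKM in IPF replicates 1 to 4, 181 FPKM in IPF replicate 5 and 213 to 260 FPKM in sham. Tsc22d3 was at place 34 and Dbp at place 72, and Creb3l1 came last of all 13444.
The closest to Creb3l1 were Chst1, a sulfotransferase (0.99), Exoc3l4 (0.99), Afap1l2 (0.98), Clmp, an adhesion molecule (0.98), and Arvcf, a catenin (0.98). Afap1l2 stood at 6.88 to 8.45, 4.91 and 3.05 to 3.71 FPKM in the same order and Arvcf at 10.8 to 11.6, 7.09 and 4.42 to 5.50 FPKM.

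With the group means removed, a different set was closest. In each of the 3 genes IPF replicate 5 was the lung farthest from its group mean, so this ranking rests largely on that lung. It was not repeated without IPF replicate 5. For Spon2 these were Ciita, the master regulator of MHC class II genes (0.98), Ces2g, a carboxylesterase (0.97), Loxl1 (0.97), Tars2 (0.97) and Dtx4 (0.96). Ciita was at 3.24 to 3.69 FPKM in IPF replicates 1 to 4, 1.64 FPKM in IPF replicate 5 and 1.91 to 2.39 FPKM in sham, so IPF replicate 5 was below every other lung. For Rgcc they were Sult1a1, a sulfotransferase (0.98), 2310009B15Rik (0.98), Hpcal1 (0.98), Nop53 (0.97) and Setd3 (0.97). Sult1a1 was at 27.5 to 32.7, 64.3 and 50.1 to 55.2 FPKM in that order, highest in IPF replicate 5. For Creb3l1 they were Ywhag, a 14-3-3 protein (0.98), Ano8 (0.96), Insyn1 (0.95), Scn3a, a sodium channel (0.94), and Ces2e (0.94). Insyn1 was at 6.31 to 7.79, 3.30 and 2.48 to 3.79 FPKM.

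How common the pattern was among genes was counted by leaving out each IPF lung, calling genes on the other 9 samples, and then reading the shift of each called gene in the lung left out. Only genes whose mean reached 1 FPKM in IPF or in sham were counted. Without IPF replicate 5, 221 genes were called by limma (both limits, an adjusted p under 0.05 and more than 1 log2 unit of change), and 111 of them (50.2%) showed less than 50% of the shift in IPF replicate 5. For the other lungs these numbers were 8 of 144 (5.56%) in IPF replicate 1, 13 of 140 (9.29%) in IPF replicate 2, 47 of 192 (24.5%) in IPF replicate 3 and 5 of 130 (3.85%) in IPF replicate 4.
IPF replicate 5 was therefore weak for many genes besides the 3. Its median over the 221 genes was 49.2% of the shift, and 50 of them lay in the sham range there. The weak genes were 55 of the 129 that were higher in IPF and 56 of the 92 that were lower. In the other 4 IPF lungs the 3 genes each showed 100.2% to 151% of the shift of the rest, a base that IPF replicate 5 draws toward sham.
Of the 221 genes, 20 had a smaller share than Spon2, 55 a smaller share than Rgcc and 69 a smaller share than Creb3l1. The 5 weak genes with the largest change in the other lungs were Zbtb16, a zinc finger factor that glucocorticoids induce (9.57%), Nr1d2, a repressor of the clock (36.8%), Spon2, the microRNA gene Mir6937 and Fkbp5 (26.7%). Mir6937 had at most 3 reads in any lung, so no fold is given for it. Zbtb16 was at 1.11 to 3.81 FPKM in IPF replicates 1 to 4, 24.7 FPKM in IPF replicate 5 and 26.9 to 47.3 FPKM in sham. Without Mir6937, Spon2 was the gene among these that was higher in IPF.

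**Figure D3:**
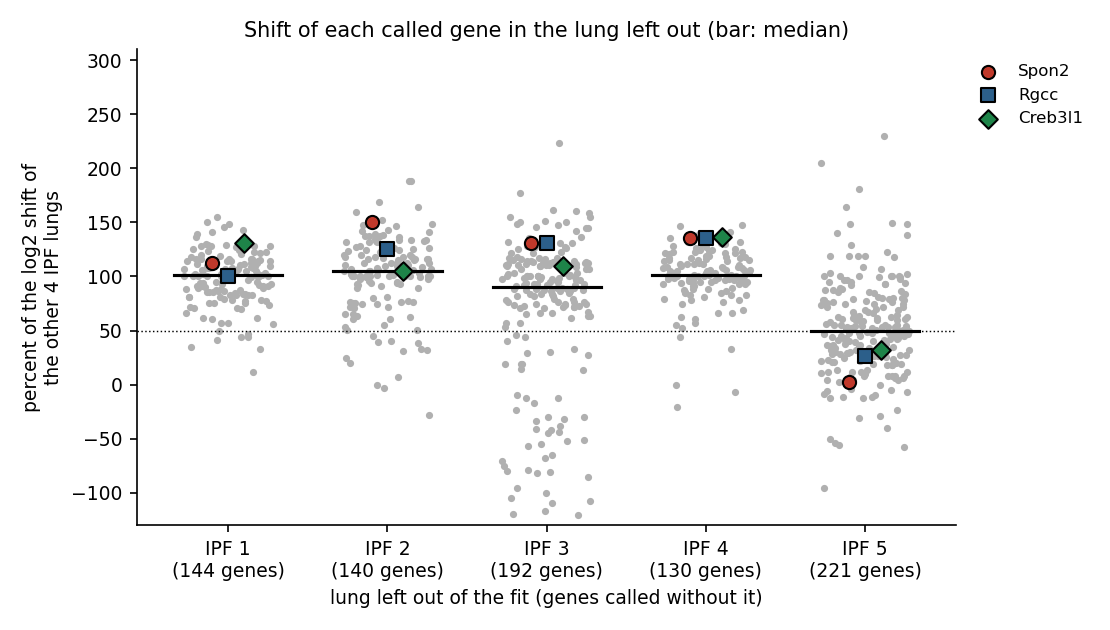
For each IPF lung, the genes called without it (grey points, number under the axis) and their log2 shift in that lung as a percentage of the shift in the other 4 IPF lungs (vertical axis), with the median as a black bar, a dotted line at 50% and Spon2, Rgcc and Creb3l1 as coloured symbols. The median is 49.2% for IPF replicate 5 and between 90.3% and 105% for the others, and 1 of the 827 points lies outside the axis and is drawn at its edge.

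The genes that the 3 proteins are known to act with were tested with limma on log2(FPKM + 0.1), with p adjusted over all 20448 genes tested. Of those genes, 5.85% had an adjusted p under 0.05, and 1.14% also changed by more than 1 log2 unit. The median log2 fold change of all genes tested was 0.0016. The relatives and partners of mindin did not pass: 0 of 9 spondins, R-spondins and thrombospondins (median 0.06) and 0 of 5 integrin chains (median 0.25) had an adjusted p under 0.05. Spon1, the nearest relative of Spon2, was at 43.0 ± 3.30 FPKM in IPF and 39.5 ± 1.76 FPKM in sham (SD, n = 5 each; 0.12 in log2 units, adjusted p = 0.330 by limma). Rspo2, the gene of that list closest to the limit, differed by 0.94 in log2 units (adjusted p = 0.0582 by limma) at 0.334 ± 0.0457 against 0.134 ± 0.0715 FPKM. Itgb2, the shared chain of the leukocyte integrins, differed by 0.45 (adjusted p = 0.0649 by limma).

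Of 11 genes of CDK1 and mitotic entry, 0 were higher and 2 lower (median 0.25). Wee1, the kinase that holds CDK1 inactive and also a clock-controlled gene, fell from 18.7 ± 1.62 to 7.06 ± 1.66 FPKM (SD over 5 lungs each, -1.42 in log2 units, adjusted p = 0.000319 by limma). In IPF replicate 5 Wee1 was at 9.62 FPKM, above the other IPF lungs (5.44 to 7.45 FPKM) and below sham (16.3 to 20.8 FPKM). Cdc25b, a phosphatase that activates CDK1, dropped by 0.34 in log2 units (adjusted p = 0.0432 by limma), and its adjusted p was above 0.05 in 12 of 19 alternative fits. Cdk1 itself was at 1.41 ± 0.503 FPKM in IPF and 1.11 ± 0.164 FPKM in sham (0.27 in log2 units, adjusted p = 0.553 by limma).
Of 12 complement genes tested, 2 were higher and 0 lower (median 0.35). They were C5ar1, the receptor for the C5a peptide (5.19 ± 0.528 against 3.47 ± 0.618 FPKM, 0.58 in log2 units, adjusted p = 0.0180 by limma), and Hc, which encodes C5 (114.5 ± 23.2 against 82.2 ± 3.15 FPKM, 0.46 in log2 units, adjusted p = 0.0352 by limma). Hc was above 0.05 in 12 of 19 alternative fits, and C5ar1 in 2, those without IPF replicate 4 and without sham replicate 3.

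None of the 7 other membrane-bound factors and processing proteases of the Creb3l1 family that were tested passed (0 of 7, median 0.04). Creb3l2, the nearest relative of Creb3l1, was at 23.3 ± 0.977 FPKM in IPF and 22.4 ± 3.48 FPKM in sham (SD, n = 5 each; 0.07 in log2 units, adjusted p = 0.739 by limma), and Mbtps1, which cuts these factors, differed by -0.14 in log2 units (adjusted p = 0.333 by limma).
Of 21 genes for collagen chains, collagen modification and export, 1 was higher and 1 lower (median -0.10). P4ha1, a collagen prolyl hydroxylase that is also induced by hypoxia, rose from 30.8 ± 0.767 to 39.8 ± 4.45 FPKM (0.36 in log2 units, adjusted p = 0.0153 by limma). Col6a1 fell from 156.8 ± 12.7 to 121.8 ± 11.5 FPKM (-0.37 in log2 units, adjusted p = 0.0247 by limma), and was above 0.05 in 4 of 19 alternative fits. Without IPF replicate 5, where 7.92% of all genes had an adjusted p under 0.05 by limma, 2 of the 21 were higher and 2 lower, with Serpinh1 and Col6a2 added. The 3 genes were picked for standing apart in that lung, so fits without it, here and below, are descriptions only. Serpinh1 (HSP47), the chaperone of procollagen in the ER, was at 307 to 422 FPKM in IPF replicates 1 to 4, 195 FPKM in IPF replicate 5 and 217 to 266 FPKM in sham, with a difference of 0.39 in log2 units (adjusted p = 0.248 by limma) that was 0.56 without IPF replicate 5 (adjusted p = 0.00878). The fibrillar collagen gene Col1a1 was at 93.1 ± 28.5 FPKM in IPF and 104 ± 14.2 FPKM in sham (-0.20 in log2 units, adjusted p = 0.609 by limma), with IPF replicate 5 at 57.6 FPKM, below all other lungs.
Of 21 genes of the ER stress response, 1 was higher and 1 lower (median 0.13). Herpud1, which helps to clear misfolded ER proteins, fell from 102 ± 6.94 to 67.5 ± 10.6 FPKM (-0.61 in log2 units, adjusted p = 0.00579 by limma), and Ddit3 (CHOP) rose from 10.4 ± 0.890 to 13.9 ± 1.89 FPKM (0.41 in log2 units, adjusted p = 0.0323 by limma), with an adjusted p above 0.05 in 9 of 19 alternative fits. These counts depended on IPF replicate 5. Without that lung, left out because the 3 genes stood apart in it, 7 of the 21 were higher and 1 lower, against the 7.92% of all genes. The 6 genes gained were Xbp1, a transcription factor of the response, the ER chaperones Hspa5, Hsp90b1 and Calr, the disulfide isomerase Pdia4, and Sdf2l1.
The main ER chaperone Hspa5 was at 157 to 224 FPKM in IPF replicates 1 to 4, 125.5 FPKM in IPF replicate 5 and 121.5 to 146.5 FPKM in sham. Its difference was 0.39 in log2 units with all lungs (adjusted p = 0.158 by limma) and 0.53 without IPF replicate 5 (adjusted p = 0.0141). IPF replicate 5 lay in the sham range for Hspa5, Hsp90b1, Pdia4, Sdf2l1 and Xbp1, and below every other lung for Calr, at 159 FPKM against 169 to 180 FPKM in sham and 196 to 244 FPKM in the other IPF lungs.

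**Figure D4:**
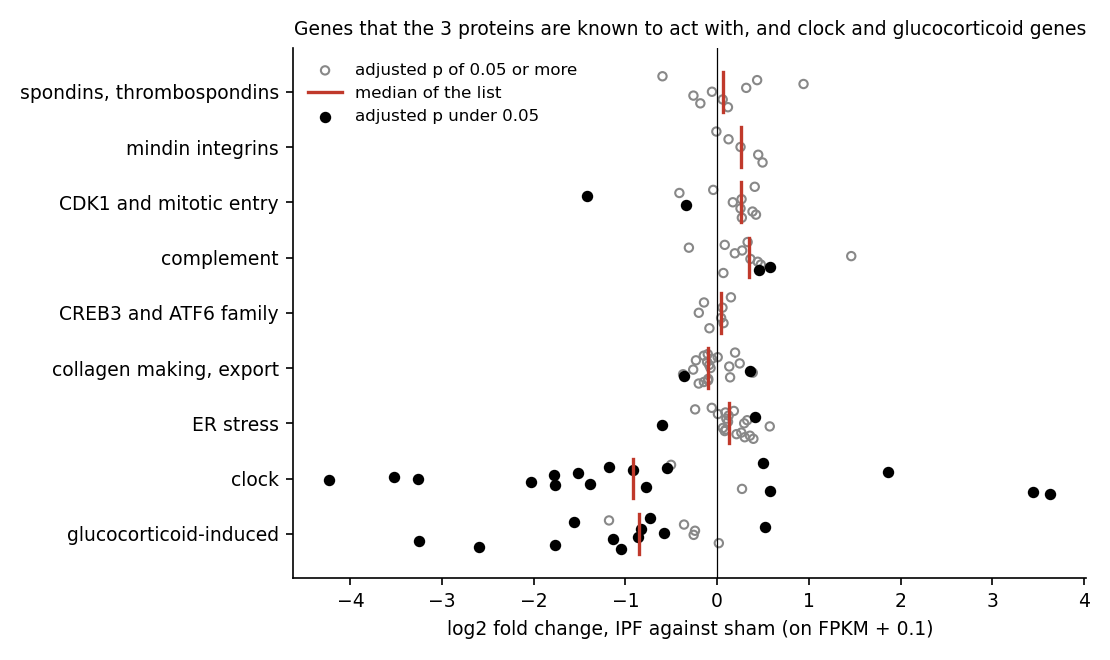
Log2 fold change of IPF against sham on FPKM + 0.1 (horizontal axis) for each tested gene of 9 lists (rows), filled where the limma adjusted p over all 20448 genes was under 0.05 and open otherwise, with the median of each list as a red bar. The clock and glucocorticoid lists hold most of the filled points, and the lists of spondins, integrins and the CREB3 family hold 0.

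The clock and glucocorticoid lists that Arntl, Dbp and Tsc22d3 come from moved widely, with 17 of 19 and 11 of 16 genes past an adjusted p of 0.05 from limma, against the 5.85% of all genes. Among the clock genes, Arntl, Npas2, Clock and Nfil3 were higher, and Cry2, Per1, Per2, Per3, Nr1d1, Nr1d2, Dbp, Tef, Hlf, Ciart, Bhlhe40 and Bhlhe41 lower in IPF (median of the list -0.92). Of the glucocorticoid genes, Cdkn1a was higher and Tsc22d3, Fkbp5, Per1, Zbtb16, Ddit4, Klf9, Mt1, Errfi1, Pdk4 and Lcn2 lower (median -0.85), and Per1 is on both lists. The adjusted p of Tsc22d3 was 0.0247, and it was above 0.05 in 10 of 19 alternative fits, of which 4 each left out one of IPF replicates 1 to 4. That of Klf9 was above 0.05 in 9 of 19, Mt1 in 10, Lcn2 in 6, Pdk4 in 3, and Zbtb16 in 1. The hour at which the lungs were taken was not given in the sources used here.
The place of IPF replicate 5 differed between genes of these lists. In 12 clock genes that passed both limits without IPF replicate 5, its share of the shift ran from 30.6% (Per1) to 99.3% (Bhlhe41), with a median of 54.4%. In 8 such glucocorticoid genes it ran from -9.92% (Angptl4) to 85.1% (Ddit4), with a median of 8.67%, and 7 of the 8 were under 50%. The clock genes under 50% were 6 of 12, about the 50.2% of all 221 genes called without that lung. Per1 is counted in both lists, and the difference between the lists was not tested. Klf9 (6.56%), Pdk4 (7.78%) and Zbtb16 (9.57%) stood near Spon2 on this scale. Hlf (34.7%), a clock output factor like Tef and Dbp, stood near Creb3l1, and Fkbp5 (26.7%) near Rgcc. Other clock genes, among them Npas2 (60.5%), Nr1d1 (67.3%) and Nfil3 (83.6%), were closer to the IPF side.

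**Figure D5:**
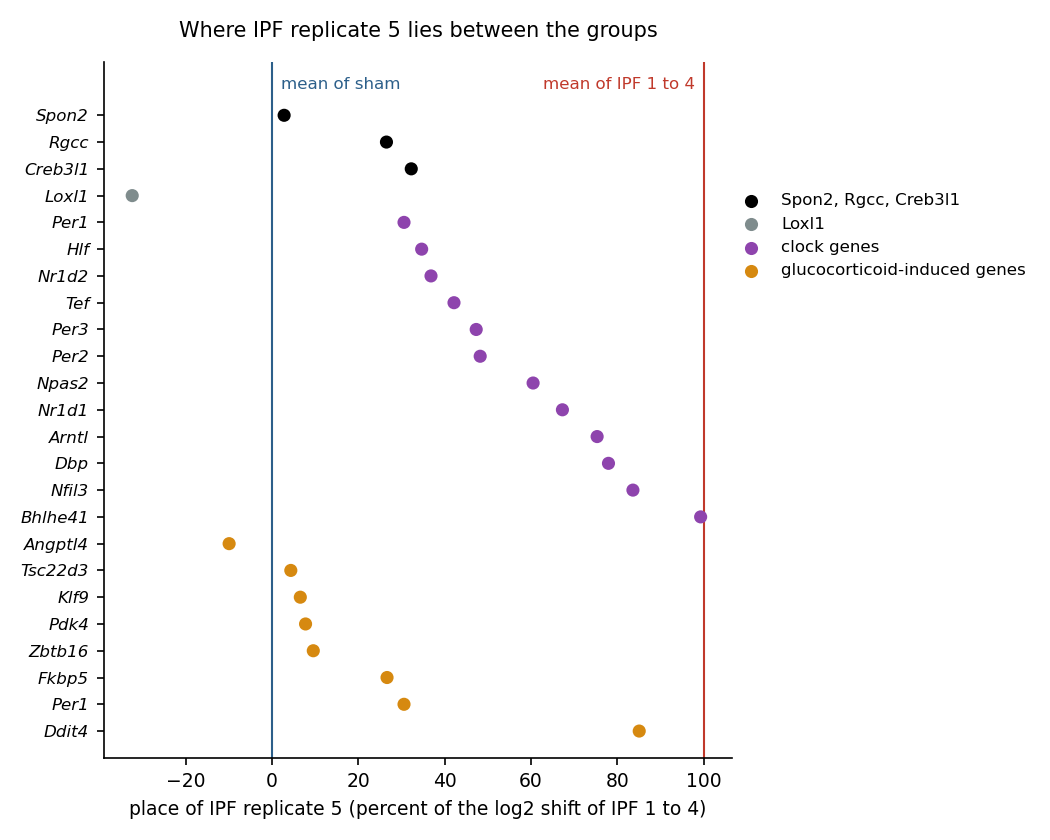
Place of IPF replicate 5 for each gene (rows) as a percentage of the log2 shift of IPF replicates 1 to 4 (horizontal axis), with the sham mean at 0 (blue line) and the mean of IPF replicates 1 to 4 at 100 (red line). Spon2 at 2.81% lies among most of the glucocorticoid-induced genes (orange). Rgcc at 26.5% lies next to Fkbp5 of that list (26.7%) and below every clock gene (purple). Creb3l1 at 32.3% lies between the clock genes Per1 (30.6%) and Hlf (34.7%), and Per1 is drawn in both lists.

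Markers of other cell types were read in the same lungs, and their part in the values of the 3 genes was not tested. The counts of markers below stand beside the 5.85% of all genes tested with an adjusted p under 0.05 by limma. Neutrophil genes (S100a8, S100a9, Retnlg, Csf3r and Cxcr2) were highest in IPF replicate 5, with a summed level of 297 FPKM against 51.3 to 72.7 FPKM in the other IPF lungs and 14.6 to 71.1 FPKM in sham, and 0 of the 5 passed between the groups. The summed capillary endothelial markers were also highest in IPF replicate 5 (1074 FPKM, against 867 to 988 FPKM in the other IPF lungs and 925 to 960 FPKM in sham), with 0 of 8 past an adjusted p of 0.05 from limma. Fibroblast markers summed to 300.2 FPKM in IPF replicate 5, within the ranges of the other IPF lungs (280 to 318 FPKM) and of sham (261 to 307 FPKM). Single fibroblast markers went different ways there, with Tcf21 (81.3 FPKM) above and Col14a1 (4.87 FPKM) below every other lung. Of the 8, 2 passed between the groups, Pdgfra and Lum, both higher in IPF. Large-vessel endothelial markers summed to 105.6 FPKM in IPF replicate 5, above the other IPF lungs (82.3 to 98.7 FPKM) and sham (84.8 to 101 FPKM), and 2 of 5 were higher in IPF, Gja5 (adjusted p = 0.0211 by limma) and Nr2f2 (0.0280). Of 5 pericyte markers Cspg4 was lower in IPF (adjusted p = 0.0173 by limma), and of 6 T cell markers Cd4 was higher (0.0440). Of 5 natural killer markers, Ncr1, Gzma and Prf1 were higher in IPF, and the summed level in IPF replicate 5, 10.6 FPKM, was just below the other IPF lungs (11.0 to 16.9 FPKM) and above sham (3.54 to 8.86 FPKM). The 5 cartilage markers, Acan, Col2a1, Col9a1, Matn1 and Cnmd, were at or near 0 in all lungs, with no value above 0.195 FPKM. The alveolar epithelial marker Sftpc, which checks the labelled tissue, was at 9437 to 16514 FPKM, lowest in sham replicate 1.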

How the data were processed

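Whole-lung mRNA of 5 IPF and 5 sham mice was sequenced. Per the methods, the authors used Fastp for trimming, HISAT2 for alignment and StringTie for quantification, and they deposited FPKM values of 54532 genes in 10 columns. GRCm39 is the stated genome, while the positions in the table are those of GRCm38. The paper and the labels name different library kits. Tool versions are not given in the sources used here.

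Multiplied by gene length, the FPKM values of a sample fell on whole steps (at least 99.85% within 0.01 of a read), from which 15483046 to 19026843 reads per sample were recovered. Genes with a mean of at least 0.1 FPKM (20448) entered a limma 3.58.1 fit (R 4.3.3, trended variances, no covariate) on log2(FPKM + 0.1), a scale that understates changes of low genes, with Benjamini-Hochberg adjustment. The fit was tested on simulated data. The authors' own test was DESeq2. Ddit3 is listed under 2 identifiers, and the one above 0 was used.

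The 3 genes, the comparators and all lists were chosen with earlier results of these data known. Named genes are the 3 genes, the comparators, list genes with an adjusted p under 0.05, the 5 genes most correlated with each gene by each measure, and the 5 weak genes with the largest change without IPF replicate 5. The values of 1 listed gene are not reported here. Examples beyond this rule were chosen after their values were seen. Differences and correlations of the 3 genes carry no test. Alternatives were other pseudocounts, filters and normalizations, voom on the recovered reads, a replicate block, no trend, and leaving out each sample. Python 3.11.15, pandas 2.3.3, numpy 2.4.6, scipy 1.17.1 and matplotlib 3.10.9 were used.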

Additional observations from a re-analysis of the deposited data

Results flagged for a closer look

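In each group of 5 lungs, the gap between the most extreme lung and its neighbour was divided by the range of the group on the log2(FPKM + 0.1) scale and compared with Dixon's critical value of 0.71 for 5 samples. This was done for 14 measures in 2 groups, 28 groups in all, of which chance alone flags about 1 in 20, and 9 were over the limit. Of these, 7 were in IPF replicate 5. They were Spon2 (0.797), Rgcc (0.722), Creb3l1 (0.743), Arntl (0.725), Loxl1 (0.796), the summed glucocorticoid list (0.716) and the summed neutrophil list (0.802). The 3 genes were picked for this pattern, and the comparators and lists were chosen with results of these data known, so the number of flags cannot be read against the rate that chance gives. On the linear FPKM scale the ratio was 0.567 for Spon2, 0.679 for Creb3l1 and 0.650 for Arntl, under the limit, and 0.810 for Rgcc. In the same lung Dbp (0.753, log2 0.685), Tsc22d3 (0.758, log2 0.644) and the summed clock list (0.746, log2 0.697) were over the limit on the linear scale alone.

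The other flags were in sham lungs. Creb3l1 in sham replicate 3 (0.882) stood below the remaining sham lungs, at 5.86 FPKM against 7.01 to 7.17 FPKM, and the summed alveolar epithelial markers in sham replicate 1 (0.798) were low, with Sftpc at 9437 FPKM against 14937 to 16514 FPKM in the other sham lungs. In sham replicate 1 the 3 genes lay within the range of the other sham lungs, except Rgcc, whose 212 FPKM was the lowest by less than 2 FPKM.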

How the results depend on the processing

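The differences of Spon2, Rgcc and Creb3l1 between the groups kept their sign in the 15 alternatives run for them (pseudocounts, normalizations, the replicate block and leaving out each lung). Leaving out each lung in turn gave log2 differences of 2.45 to 3.35 for Spon2, -1.69 to -1.35 for Rgcc and 0.97 to 1.21 for Creb3l1, and IPF replicate 5 was the lung whose omission moved each of them by more than 1 sham SD. With a pseudocount of 1 the log2 difference of Spon2 was 2.40. All 12 correlations kept their sign, and 1 of 180 alternative values moved by more than 0.1: Spon2 with Dbp, whose r was -0.99 without IPF replicate 5. These alternatives all kept the group difference, so they say little about the sign. With the group means removed and IPF replicate 5 left out, the sign changed for Spon2 with Arntl (-0.02) and with Dbp (0.04). It also changed for Rgcc with Arntl (0.05) and Creb3l1 with Tsc22d3 (0.28).

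The count of genes past both limits was 233, 74 with a pseudocount of 1, 154 with a minimum mean of 1 FPKM and 164 (without IPF replicate 4) to 303 (without IPF replicate 5) when each lung was left out. With a replicate block it was 202. The labels do not say whether lungs with the same number share more than that number. Their deviations from the group means correlated at -0.02 to 0.10, and 3 of 5 IPF lungs correlated best with their own number. Without IPF replicate 5 the ER stress list went from 1 to 7 genes higher and the collagen list from 1 to 2 higher and 1 to 2 lower, and the counts of the spondin, integrin, CDK1, complement and CREB3 lists were the same. Under the replicate block Cdc25b (adjusted p = 0.1003), Hc (0.0536) and Tsc22d3 (0.0506) were above 0.05 in limma. The number of genes with an adjusted p under 0.05 on the partner, clock, glucocorticoid and sex-linked lists, without the cell type lists, was 40 and ran from 31 (without sham replicate 3) to 50 (without IPF replicate 5) over 19 alternatives. Over the single fits of those 40 genes, 680 kept their side of the threshold, 79 lost it and 0 changed sign. The 111 genes that were weak in IPF replicate 5 became 53 at a limit of 25% of the shift and were 111 with a pseudocount of 1.

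The 3 genes held at least 98 reads in every lung.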
